A study of Mus musculus with 4 samples.

Results

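The genes described here encode the channels, sensors, pumps and exchangers that move calcium across the membranes of a cell. The rule that picks them reads gene symbols and no expression values, although the family was proposed with earlier results of these data known: the TRP, Piezo, STIM, ORAI and voltage-gated calcium channel genes, the IP3 and ryanodine receptors, the SERCA and PMCA calcium ATPases, the sodium-calcium exchangers and Pkd2. The rule found 73 genes among the 33641 symbols in the data. The cells were wild-type cardiac fibroblasts of C57BL/6J mice aged 12 weeks, isolated and then cultured. One group (2 libraries) received vehicle and the other (2 libraries) 10 ng/ml TGFbeta, the growth factor that drives fibroblasts towards a contractile, matrix-making state. Both groups also took up 4-thiouridine and were exposed to 368 nm light, which links RNA to bound protein. The study design speaks of RNA recovered with HuR, an RNA-binding protein, while the sample labels speak of total RNA, so every value below is a level in a library of 1 of these kinds. The labels do not say whether the libraries of a group came from separate cultures or animals, so p-values measure only the spread between these samples.

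Calcium enters a cell through plasma membrane channels and leaves the endoplasmic reticulum through IP3 and ryanodine receptors. SERCA pumps refill the reticulum, and PMCA pumps and sodium-calcium exchangers clear calcium from the cell. When the reticulum empties, STIM proteins in its membrane open ORAI pores in the plasma membrane, while Piezo and several TRP channels respond to stretch, lipids or temperature. Cardiac fibroblasts are not electrically excitable like the myocytes around them, and calcium entry in fibroblasts is known to feed the calmodulin, calcineurin and NFAT pathway and the change to myofibroblasts.

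With TGFbeta, 1 of the 73 genes rose and 2 fell. The one that rose was Piezo2, a stretch-gated channel gene, at 2.75 times its vehicle level. The genes that fell were Cacna1a, which encodes the pore of P/Q-type voltage-gated calcium channels, to 0.482 times its vehicle level, and Cacnb1, which encodes a cytoplasmic subunit of such channels, to 0.607 times. Levels are given as TPM, a share of each library's transcripts that is corrected for transcript length. Genes are compared on this scale as levels in these libraries. If the RNA was recovered with HuR, such a comparison would not be one of levels in the cells. Of the 73 genes, 41 reached a mean of at least 1 TPM over the 4 libraries and were tested. The test was limma on log2(TPM + 1), two-sided, with Benjamini-Hochberg adjustment over all 15815 genes that passed the same filter and an adjusted p under 0.05 as the threshold. Among all tested genes limma called 5.92%, 1.54% higher and 4.38% lower with TGFbeta, beside 3 of these 41 (7.32%). The share in this family thus lay near the share of all genes. Their median log2 change was -0.11, against -0.13 for all tested genes. After median scaling of the libraries, which moved the latter median to 0.03, all tested genes split into 421 higher and 401 lower rather than 244 and 692, and the members into 2 higher and 1 lower. The 3 calls were lost when any single library was left out, as given gene by gene below.

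**Figure D1:**
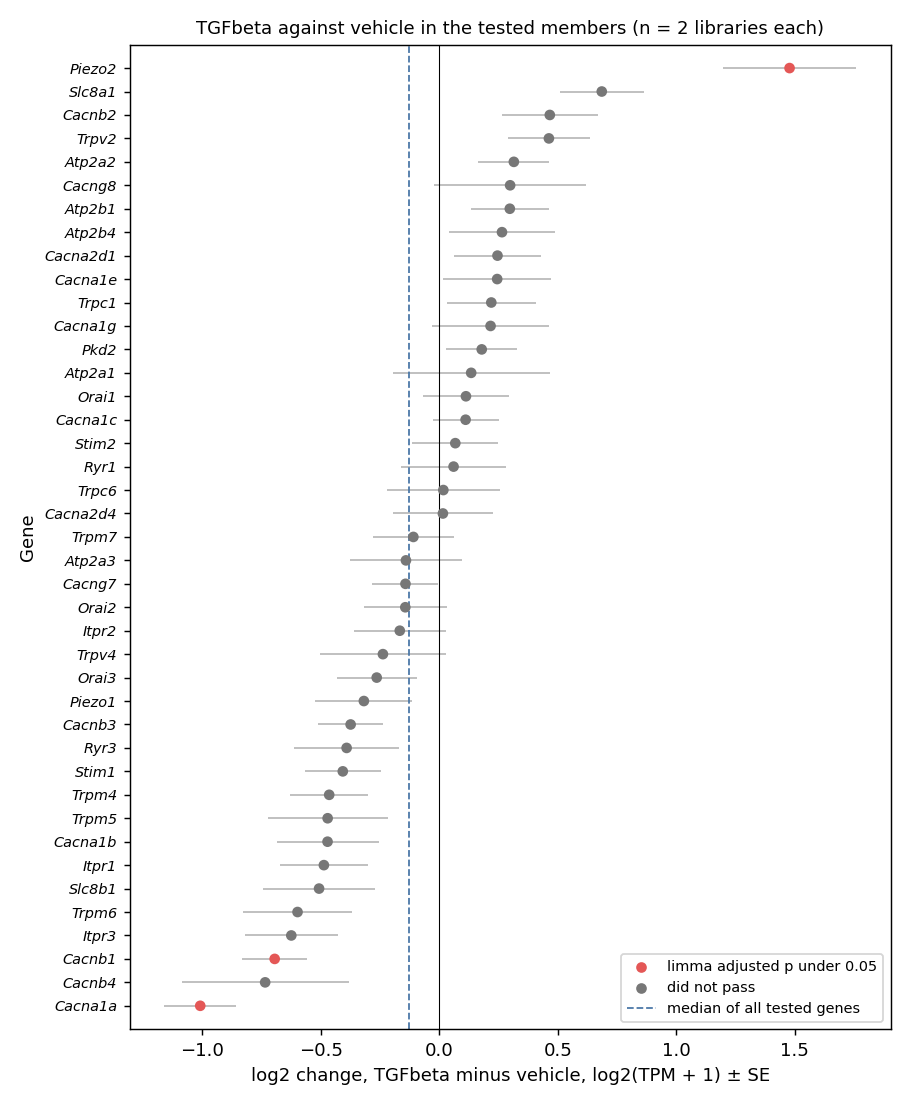
Log2 change (TGFbeta minus vehicle, on log2(TPM + 1), with the SE of the limma fit) on the x axis for each of the 41 tested genes on the y axis; red points passed the test, grey points did not, and the dashed line is the median of all tested genes (-0.13). Piezo2 stands at the high end at 1.48 and Cacna1a at the low end at -1.01.

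In terms of level, the family was led by a stretch channel, a reticulum pump and a channel subunit that is usually studied in excitable cells. Piezo1 had the highest mean, at 109 and 141 TPM without and 116 and 84.9 TPM with TGFbeta. It was followed by Atp2a2, the SERCA pump gene of heart muscle and most other cells, with 93.8 and 77.8 TPM, then 111 and 102 TPM with TGFbeta. Cacnb3, Pkd2 and Stim1 were the other genes with a mean of at least 50 TPM, and 25 of the 73 had at least 10 TPM. A further 16 lay between 1 and 10 TPM. The remaining 32 had a mean under 1 TPM and were not tested. Because these are bulk libraries, fewer cells of a type and less RNA per cell cannot be told apart in any value given here.

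**Figure D2:**
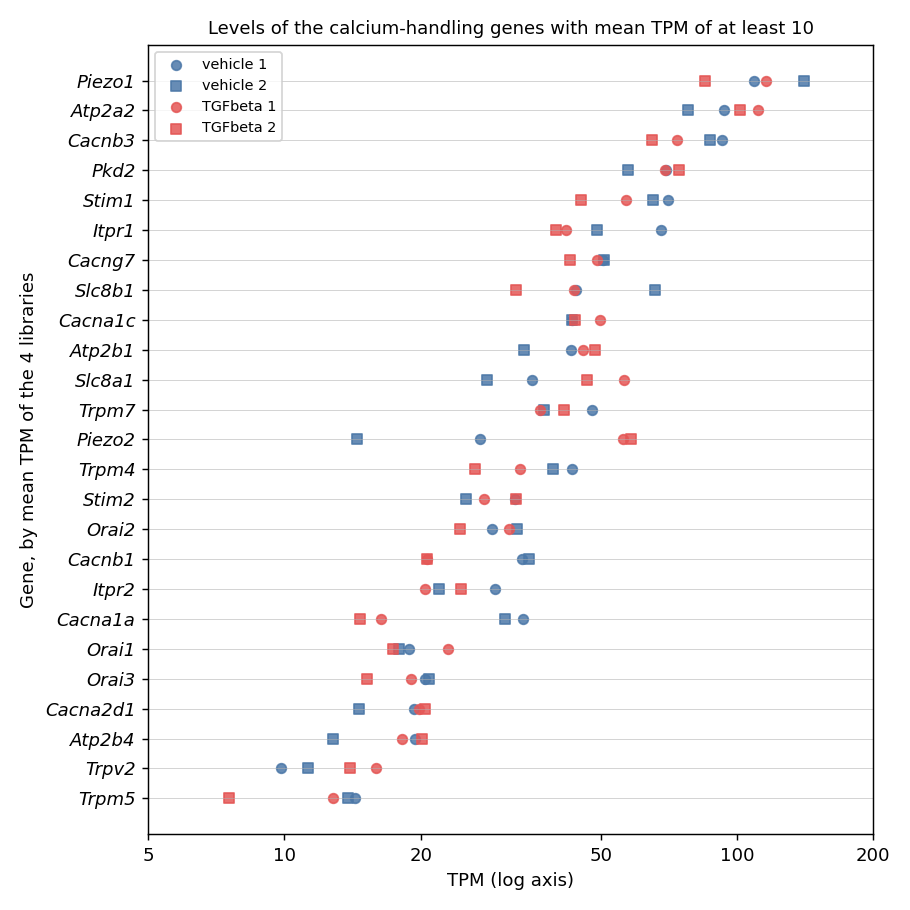
TPM in each of the 4 libraries (x axis, logarithmic) for the 25 genes with a mean of at least 10 TPM (y axis, ordered by mean); blue marks are vehicle and red marks TGFbeta, circles replicate 1 and squares replicate 2. The TGFbeta marks of Piezo2 lie right of both vehicle marks, and those of Cacna1a and Cacnb1 lie left of them. Other rows that did not pass the test also have groups apart, such as Slc8a1, Trpv2, Stim1 and Cacnb3. Rows such as Piezo1 and Trpm7 are interleaved.

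Of the 2 Piezo genes 1 rose and the other did not pass; the difference between their changes was not tested. Piezo2, best known as the touch channel of sensory neurons (GRCm38 chromosome 18, 63010213 to 63387183, minus strand), had 27.1 and 14.5 TPM with vehicle and 55.9 and 58.3 TPM with TGFbeta. Both TGFbeta libraries lay above both vehicle libraries, and the vehicle libraries differed from each other far more than the TGFbeta libraries did. Mean levels were 20.8 ± 8.93 and 57.1 ± 1.74 TPM (SD, n = 2 each), with a log2 change of 1.48 (SE 0.28, limma adjusted p = 0.0406). Piezo1, the widely expressed member (chromosome 8, 122481698 to 122551329, minus strand), had overlapping groups and did not pass, with a log2 change of -0.32 (SE 0.21, limma adjusted p = 0.400). As a result of both values, Piezo2 made up 19.9% and 9.32% of the summed Piezo TPM with vehicle and 32.6% and 40.7% with TGFbeta. Piezo1 remained the more abundant of the pair in all 4 libraries. In the annotation, 24.6% of the exonic bases of Piezo1 are shared with Ctu2 on the opposite strand (mean 40.6 TPM), and strand use in the counting is not given in the sources used here. The Piezo2 call was lost on leaving out vehicle 1 (log2 change 1.91, limma adjusted p = 0.0828), vehicle 2 (1.05 and 0.144), TGFbeta 1 (1.51 and 0.125) or TGFbeta 2 (1.45 and 0.140). Fits without an intensity trend (limma adjusted p = 0.0626) or over all genes above 0 (0.130) did not make the call either.

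Of the 10 genes for pore subunits of voltage-gated calcium channels, 5 were tested, and 1 fell. Cacna1a (chromosome 8, 84388440 to 84640246, plus strand) had 33.7 and 30.7 TPM with vehicle and 16.3 and 14.7 TPM with TGFbeta. The groups were well apart and each pair of libraries was close, with means of 32.2 ± 2.09 and 15.5 ± 1.13 TPM (SD, n = 2 each). The log2 change was -1.01 (SE 0.15, limma adjusted p = 0.0237). Of the exonic bases of Cacna1a, 3.81% are shared with Gm16183 on the opposite strand. The pore gene with the highest level was Cacna1c, the L-type channel that triggers contraction in heart muscle, at 43.3 and 43.2 TPM with vehicle and 49.9 and 43.9 TPM with TGFbeta (log2 change 0.11, limma adjusted p = 0.676). Cacna1b, the N-type pore of nerve terminals, had 3.44 and 3.96 TPM with vehicle and 2.09 and 2.71 TPM with TGFbeta. Its groups did not overlap, but it did not pass (limma adjusted p = 0.245). Cacna1g, a T-type pore that opens at low voltage, lay between 3.93 and 6.42 TPM and Cacna1e, the R-type pore, between 1.96 and 3.15 TPM, and neither passed. Cacna1a held 36.8% and 35.6% of the summed pore TPM with vehicle and 20.9% and 20.5% with TGFbeta, while Cacna1c went from 47.3% and 50.1% to 63.9% and 61.2%. The summed pore level averaged 88.9 ± 3.78 TPM for vehicle and 74.9 ± 4.59 TPM for TGFbeta (SD, n = 2 each). Cacna1a did not pass on leaving out vehicle 1 (limma adjusted p = 0.150), vehicle 2 (0.165), TGFbeta 1 (0.0851) or TGFbeta 2 (0.0959), or over all genes above 0 (0.0853), while its log2 change stayed between -1.08 and -0.85 over all settings.

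Auxiliary subunits carry the pore to the membrane and tune its gating. The beta subunits sit on its cytoplasmic side, and 1 of 4 fell. Cacnb1, the beta subunit of skeletal muscle channels (chromosome 11, 98001508 to 98023034, minus strand), had 33.4 and 34.6 TPM with vehicle and 20.6 and 20.7 TPM with TGFbeta. The libraries of each group nearly coincided, and the log2 change was -0.69 (SE 0.14, limma adjusted p = 0.0450). That value stood close to the threshold. The call was lost in the 4 fits without 1 library, where the log2 change was -0.72 to -0.67. It was also lost after median scaling (limma adjusted p = 0.0919) and quantile normalization (0.0854) and with the replicate block (0.100). Fits without an intensity trend (limma adjusted p = 0.0705) and with every gene above 0 (0.0988) lost it too. Cacnb1 shares 1.77% of its exonic bases with Gm11629 on the opposite strand. Cacnb3, the beta gene with the highest level, had 92.8 and 87.1 TPM with vehicle and 73.9 and 64.7 TPM with TGFbeta. Its TGFbeta libraries were both lower, but it did not pass (log2 change -0.37, limma unadjusted p = 0.034 and adjusted p = 0.167). Cacnb2, the main beta subunit of heart muscle, lay on the other side, with 3.66 and 4.45 TPM against 6.53 and 5.45 TPM with TGFbeta (log2 change 0.47, limma adjusted p = 0.227). Cacnb4 had 5.44 and 2.29 TPM with vehicle and 1.48 and 2.09 TPM with TGFbeta, so its mean rested largely on vehicle 1 (log2 change -0.73, SE 0.35, limma adjusted p = 0.265; -0.25 without vehicle 1). Cacnb4 also shares 16.0% of its exonic bases with A430018G15Rik on the opposite strand. Summed over the 4 genes, beta subunit TPM was 131.9 ± 4.89 with vehicle and 97.7 ± 6.76 with TGFbeta (SD, n = 2 each). The extracellular alpha2delta subunits were represented by Cacna2d1, with 19.3 and 14.6 TPM against 19.9 and 20.4 TPM (limma adjusted p = 0.462), and by Cacna2d4, between 2.20 and 2.64 TPM. Of the 8 gamma subunit genes, which also include regulators of glutamate receptors, Cacng7 alone was abundant, at 50.6 and 50.8 TPM with vehicle and 49.1 and 42.9 TPM with TGFbeta (limma adjusted p = 0.586), while Cacng8 lay between 1.04 and 2.79 TPM with overlapping groups.

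Several of these subunits are best known from neurons or muscle, so markers of such cells were read beside them. Of 8 marker genes of glia and neurons, 3 were tested and 1 fell. Their summed level was 32.5 and 35.1 TPM with vehicle and 16.1 and 16.7 TPM with TGFbeta, most of it from Cnp, a gene of myelinating cells that other cells also express (27.0 and 27.4 TPM, then 10.9 and 10.8 TPM). The neuronal genes Snap25, Syt1 and Kcna1 were at or under 0.192 TPM in every library. Of 12 cardiomyocyte markers 6 were tested and 0 were called by limma (2 at an unadjusted p under 0.05, Tnnt2 and Tnni3), with sums of 88.6 and 132 TPM with vehicle and 69.2 and 74.4 TPM with TGFbeta. Tnnt2 was the largest term of that sum in each library (34.6 to 81.4 TPM), while Myh6, the main myosin gene of adult mouse heart muscle, was at or under 0.394 TPM and was listed at 0 in TGFbeta 1. Ryr2, the calcium release channel of heart muscle, had 0.643 and 0.833 TPM with vehicle and 0.354 and 0.522 TPM with TGFbeta. The part of these markers in the lower level of Cacna1a and Cacnb1 was not tested.

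**Figure D3:**
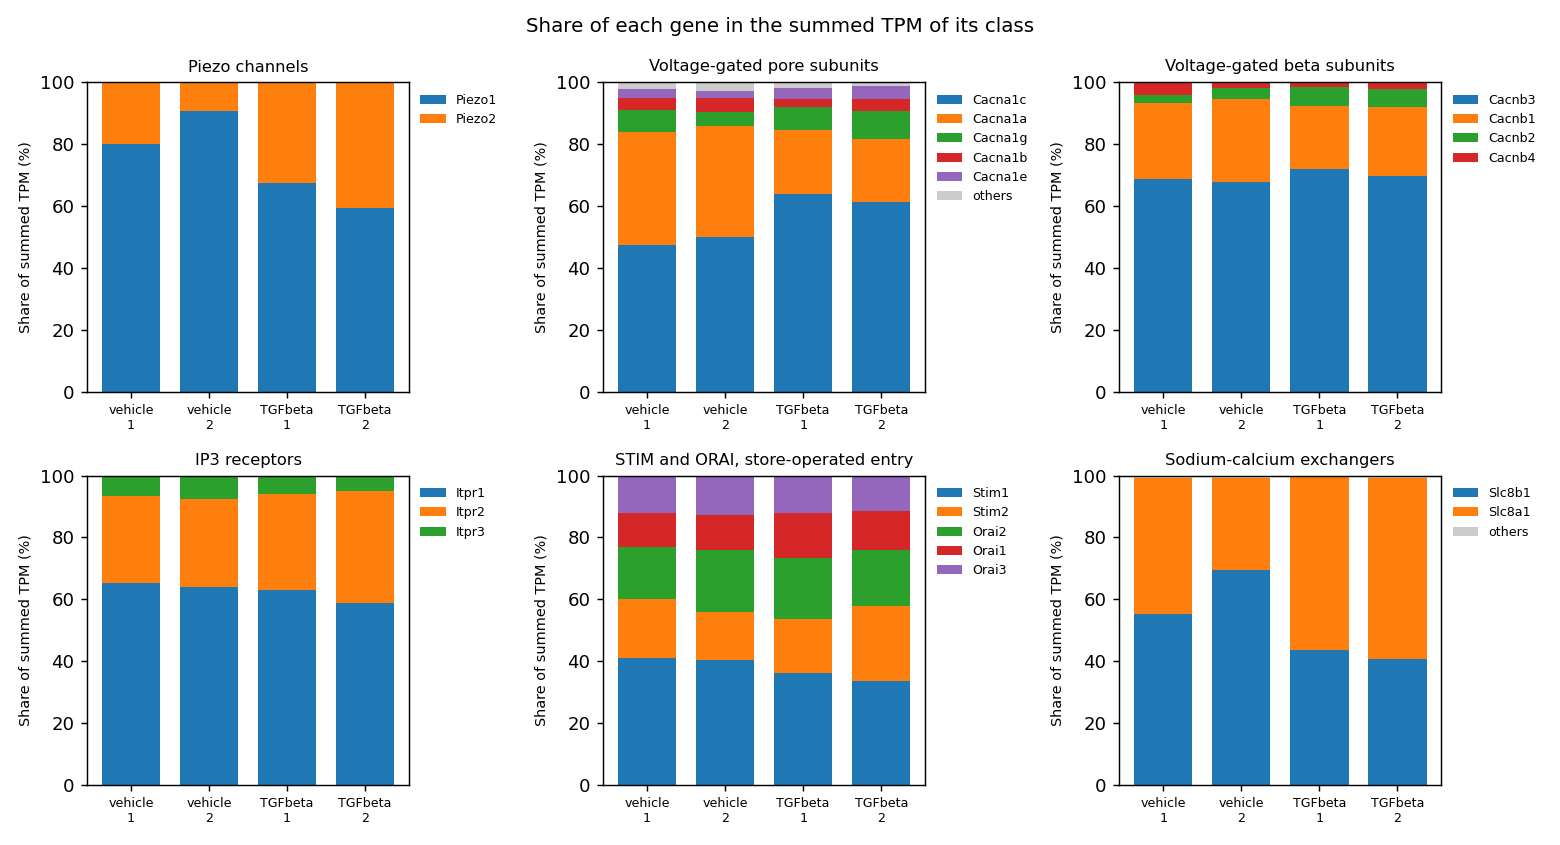
Share of each gene in the summed TPM of its class (y axis, percent) in each of the 4 libraries (x axis), for 6 classes; genes with a mean share under 1% are pooled as others. Piezo2, Cacna1c and Slc8a1 took a larger share of their classes in both TGFbeta libraries than in either vehicle library, and Cacna1a a smaller one.

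The receptors that release calcium from the reticulum did not pass, although Itpr1 and Itpr3 had an unadjusted limma p under 0.05. Itpr1, the IP3 receptor gene with the highest level, had 67.9 and 49.1 TPM with vehicle and 42.0 and 39.9 TPM with TGFbeta. Both TGFbeta libraries were lower, with the vehicle libraries far apart (log2 change -0.49, SE 0.18, limma adjusted p = 0.177). Itpr3, the least abundant of the 3, had 6.79 and 5.91 TPM against 4.07 and 3.48 TPM (log2 change -0.62, SE 0.20, limma adjusted p = 0.120). Itpr2 overlapped, with 29.2 and 21.9 TPM against 20.4 and 24.6 TPM. The order of levels, Itpr1 above Itpr2 above Itpr3, held in all 4 libraries. The ryanodine receptors, which amplify calcium release in muscle, were near the lower limit of the test, with Ryr3 at 2.18 and 1.88 TPM against 1.17 and 1.46 TPM (limma adjusted p = 0.342) and Ryr1 between 1.27 and 1.58 TPM. Ryr3 shares 4.83% of its exonic bases with Aven on the opposite strand (mean 12.0 TPM).

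None of the 5 genes of store-operated entry passed limma, and 1, Stim1, had an unadjusted p under 0.05. Stim1, the main sensor of reticulum calcium, had 70.2 and 65.2 TPM with vehicle and 56.9 and 45.3 TPM with TGFbeta. Its TGFbeta libraries were both lower (log2 change -0.41, SE 0.16, limma adjusted p = 0.188). Stim2, a sensor that responds to smaller falls in store calcium, had overlapping groups, with 32.4 and 25.2 TPM against 27.6 and 32.6 TPM. The pore gene Orai1 had 18.9 and 17.9 TPM with vehicle and 23.0 and 17.3 TPM with TGFbeta, and Orai2 had 28.8 and 32.7 TPM, then 31.4 and 24.4 TPM. Orai3, at 20.5 and 20.8 TPM against 19.0 and 15.2 TPM, was lower in both TGFbeta libraries without passing (limma adjusted p = 0.395). Each of the 3 ORAI genes lay between 15.2 and 32.7 TPM in all 4 libraries.

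Of the 22 TRP genes, 8 were tested and 0 were called by limma, with 3 at an unadjusted p under 0.05 (Trpm4, Trpv2 and Trpm6). Trpm7, which encodes a channel fused to a kinase and conducts magnesium and calcium, had 47.7 and 37.4 TPM with vehicle and 36.8 and 41.5 TPM with TGFbeta, with overlapping groups. Trpm4, a channel opened by calcium that itself passes sodium, had 43.1 and 39.3 TPM against 33.1 and 26.4 TPM (log2 change -0.46, SE 0.16, limma adjusted p = 0.156). Its close relative Trpm5, known from taste cells, had 14.3 and 13.8 TPM against 12.8 and 7.54 TPM, and 3.44% of its exonic bases are shared with Tssc4 on the opposite strand (mean 69.1 TPM). Trpm6, a magnesium channel, was lower in both TGFbeta libraries at 1.42 and 1.88 TPM, from 3.39 and 2.63 TPM (limma adjusted p = 0.182). Trpv2, in contrast, was higher in both, with 9.84 and 11.3 TPM against 15.9 and 13.9 TPM (log2 change 0.46, SE 0.17, limma adjusted p = 0.169). The remaining 3 tested TRP genes had means under 10 TPM. Trpc6 lay between 1.02 and 1.46 TPM, Trpv4 between 2.11 and 3.91 TPM and Trpc1 between 5.90 and 8.06 TPM, and none of these 3 passed (limma adjusted p = 0.973, 0.637 and 0.523). Pkd2, the polycystin channel of cilia and reticulum and a relative of the TRP channels, had 69.7 and 57.5 TPM with vehicle and 69.2 and 74.5 TPM with TGFbeta (limma adjusted p = 0.517).

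Pumps and exchangers did not pass, with Slc8a1 nearest to the threshold. Slc8a1, the plasma membrane sodium-calcium exchanger of heart (chromosome 17, 81373105 to 81738377, minus strand), had 35.2 and 28.1 TPM with vehicle and 56.3 and 46.6 TPM with TGFbeta. Both TGFbeta libraries were above both vehicle libraries, with means of 31.6 ± 5.07 and 51.4 ± 6.84 TPM (SD, n = 2 each) and a log2 change of 0.69 (SE 0.18, limma adjusted p = 0.0789). It passed after median scaling (0.84, limma adjusted p = 0.0421), with a mean of at least 5 TPM (0.69, limma adjusted p = 0.0408) and in a fit restricted to protein-coding genes (0.69, adjusted p of limma 0.0281). Slc8b1, the exchanger of mitochondria, had 44.2 and 65.7 TPM with vehicle and 43.5 and 32.5 TPM with TGFbeta (limma adjusted p = 0.254), and the nearest libraries of the groups almost touched. Slc8a1 was the lower of these genes in both vehicle libraries and the higher in both TGFbeta libraries. Atp2a2 was above both vehicle libraries in both TGFbeta libraries (log2 change 0.31, SE 0.15, limma adjusted p = 0.260), and so was the plasma membrane pump gene Atp2b1, with 42.9 and 33.8 TPM against 45.6 and 48.6 TPM (log2 change 0.30, limma adjusted p = 0.326). Atp2b4 overlapped, with 19.4 and 12.8 TPM against 18.2 and 20.2 TPM. Atp2a2 made up 96.5% to 97.5% of SERCA TPM in the 4 libraries, and Atp2a1 and Atp2a3 lay between 0.827 and 2.30 TPM and between 1.10 and 1.64 TPM. Of the exonic bases of Atp2a1, 21.9% are shared with Rabep2 on the opposite strand (mean 55.2 TPM).

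As a description without a variance model, 9 of the 41 tested genes had groups that did not overlap and means that differed by at least 1.5-fold. Higher were Piezo2 and Slc8a1, or 4.88% of the tested members, beside 5.08% of all tested genes. Lower were Cacna1a, Cacnb1, Cacna1b, Cacnb4, Itpr3, Ryr3 and Trpm6, or 17.1%, beside 15.2% of all tested genes. At 1.5-fold both shares lay close to those of all genes. At 2-fold they were 1 higher (Piezo2) and 2 lower (Cacna1a and Cacnb4), beside 2.1% and 5.84% of all tested genes. With no minimum fold, 10 of the 41 were higher and 15 lower, beside 15.5% and 39.8% of all tested genes. Here the share higher was above that of all genes and the share lower below it, and these differences were not tested. The other 16 tested members had overlapping groups.

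**Figure D4:**
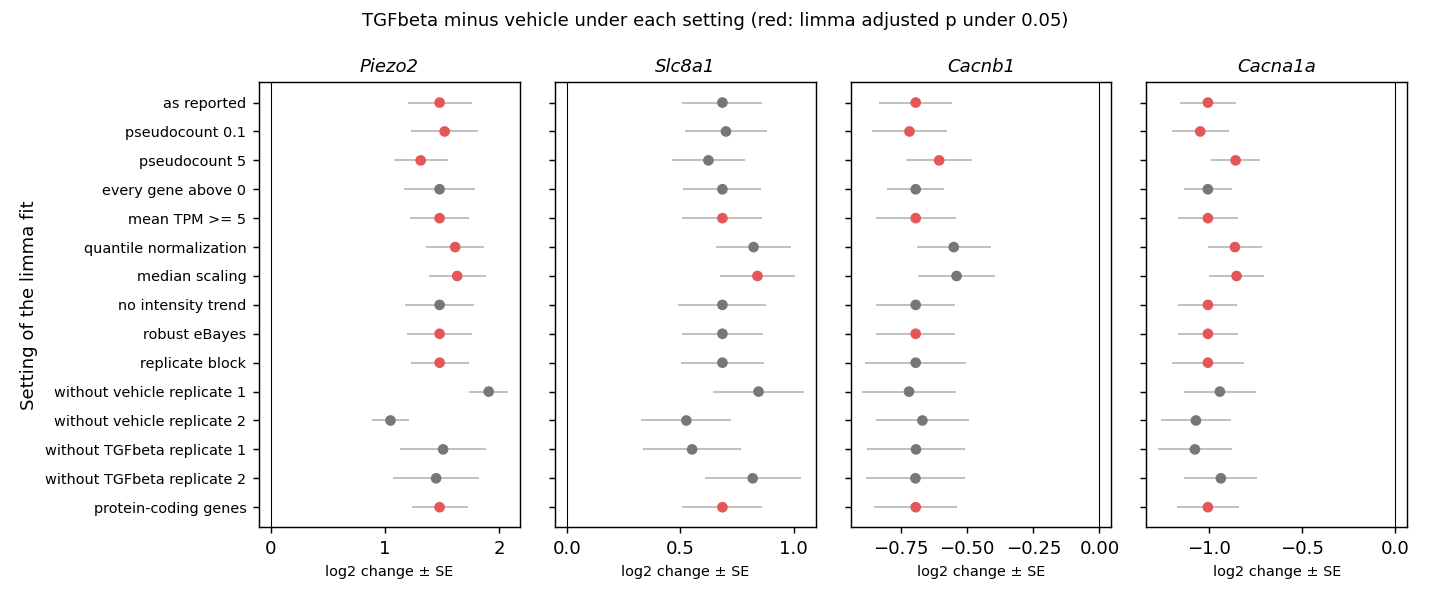
Log2 change with SE (x axis) of Piezo2, Slc8a1, Cacnb1 and Cacna1a under each setting of the limma fit (y axis), red where the adjusted p was under 0.05. All values of a gene keep their sign, and no point is red in the 4 fits that leave out 1 library.

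The 32 genes under the filter included 14 TRP genes, 5 pore subunits, 6 gamma subunits, 2 alpha2delta subunits, Ryr2, Atp2b2, Atp2b3, Slc8a2 and Slc8a3. Cacna1s, the pore of skeletal muscle, and Trpm1 had the highest means among them, at 0.701 and 0.691 TPM. Trpv5 and Cacng6 were listed at 0 in all 4 libraries. The T-type pore Cacna1h (0.292 to 0.477 TPM) and the L-type pore Cacna1d (0.177 to 0.357 TPM) were far under Cacna1g and Cacna1c. Trpc2, a pheromone channel of rodents, ranged from 0 to 0.581 TPM, and 97.5% of its exonic bases are shared with the readthrough gene Xntrpc, so that its value is uncertain.

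Other genes of the pathway were taken from 8 lists of 118 genes, of which 100 were tested, 2 rose and 8 fell (5 and 5 after median scaling), where 1.54% and 4.38% of all tested genes did. Their median log2 change was -0.08, against -0.13 for all tested genes. Of 13 tested calmodulin-dependent kinase genes 0 rose and 3 fell: Camkk2, an upstream kinase, from 68.6 to 31.9 TPM (log2 change -1.08, limma adjusted p = 0.0145), Dapk1, a death-associated kinase, from 40.9 to 19.3 TPM, and Camk2g from 46.1 to 25.6 TPM. Of 14 tested genes of phospholipase C, which makes IP3, and its partners, 0 rose and 2 fell, Plcg1 from 105.3 to 61.2 TPM (limma adjusted p = 0.0301) and Plcd3 (limma adjusted p = 0.0499). Among 19 genes of calmodulin, calcineurin and NFAT, Rcan2, an inhibitor of calcineurin, fell from 58.1 to 22.7 TPM (log2 change -1.31, limma adjusted p = 0.0233) and Akap5, an anchor of calcineurin, rose from 2.80 to 6.43 TPM. Rem1, a small GTPase of the RGK group that inhibits voltage-gated calcium channels, had 13.5 and 15.9 TPM with vehicle and 3.55 and 5.25 TPM with TGFbeta, and fell by 1.55 on the log2 scale (limma adjusted p = 0.0216), as 1 of 3 tested in its list. Tpcn2, a lysosomal two-pore channel, fell from 72.6 to 41.3 TPM among 12 tested genes of other channels, of which 0 rose. Of 12 genes for calcium buffers of the reticulum 1 rose, the chaperone Hspa5 from 355 to 666 TPM (limma adjusted p = 0.0486), while Calr, the main luminal buffer, stood at means of 652 and 1171 TPM just outside the threshold (limma adjusted p = 0.0524). This was the list with the highest median log2 change, at 0.41. Of 11 genes of mitochondrial calcium uptake limma called 0, with 0 at an unadjusted p under 0.05. Of 16 tested regulators of stores and entry it called 0, with 4 at an unadjusted p under 0.05 (Saraf, Cracr2a, Fkbp1a and Mrvi1). All 10 calls were lost when any 1 library was left out.

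HuR binds RNA rich in adenine and uracil, often downstream of the coding part, and many known targets hold the element ATTTA. In the GENCODE M21 annotation (GRCm38), the longest annotated 3′ untranslated region of each tested member was searched on the transcript strand for ATTTA and for the heptamer TATTTAT, which contains it. All 41 had such a region. ATTTA was present in 27 (65.9%), beside 69.3% of 13563 tested genes with an annotated region, and the heptamer in 16 (39.0%), beside 30.1%. The median number of ATTTA per kilobase was 1.12 in the members and 1.30 in all. Members had longer regions, with a median of 1335 bases against 1159 in all, and a longer region has more room for a match. Of the genes called, Cacna1a and Cacnb1 held no ATTTA in these regions, of 538 and 1393 bases, and Piezo2 held 2 in 1335 bases but no heptamer. Slc8a1 held 28 in 15586 bases. The 5 most abundant members that hold the heptamer, and Slc8a1, are shown as 30 bases around the heptamer nearest to the stop codon, which is in capitals, to let the surroundings be compared. A match is a stretch of letters and was not measured as a binding site here.
Piezo1, chr8:122481709-122481738, minus strand: taaaacattttTATTTATacaaacggactg
Atp2a2, chr5:122456434-122456463, minus strand: gtttttaaggtTATTTATttaaatgtctaa
Pkd2, chr5:104503749-104503778, plus strand: gataagttcggTATTTATataccccggctg
Stim1, chr7:102436059-102436088, plus strand: tccttcatcatTATTTATtaactgaccacc
Itpr1, chr6:108550165-108550194, plus strand: agaatagccagTATTTATgttttttataaa
Slc8a1, chr17:81387133-81387162, minus strand: ctcccccaacaTATTTATtgcacatctgct
The heptamer of Atp2a2 lies within the longer run TTATTTATT, which 14.6% of the members and 8.21% of all genes hold, and so does that of Stim1. None of these 6 genes passed the test between vehicle and TGFbeta.

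The labelled cell type was checked with 10 fibroblast markers, and all 10 were above 50 TPM in every library, with Pdgfra lowest at 55.5 TPM in TGFbeta 1. Pdgfra and Tcf21 fell with TGFbeta (limma adjusted p = 0.0106 and 0.0148). Col1a1 had means of 2770 TPM with vehicle and 5246 TPM with TGFbeta but did not pass (limma adjusted p = 0.0958). At an unadjusted limma p under 0.05, Col1a1 was higher and Col3a1 and Ddr2 were lower. Between 20945 and 21671 genes per library were above 0, and since TPM keeps no read numbers, the depth of each library is unknown. Markers of endothelial cells summed to 83.1 and 87.4 TPM with vehicle and 71.3 and 68.5 TPM with TGFbeta, those of macrophages and leukocytes to 86.6 and 106 TPM, then 71.5 and 75.7 TPM, and those of smooth muscle and pericytes to 115 and 122 TPM, then 86.1 and 87.5 TPM. In each list the summed TPM of both TGFbeta libraries was below that of both vehicle libraries. Notch3 was the largest term of the last sum with vehicle (74.0 and 83.9 TPM, then 21.1 and 17.4 TPM with TGFbeta). Egfl7 was the largest endothelial term with vehicle (34.0 and 34.3 TPM, then 22.5 and 17.0 TPM with TGFbeta). Lyz2 was the largest leukocyte term (55.2 and 66.4 TPM, then 42.9 and 48.1 TPM). The median log2 change of the smooth muscle and pericyte list was 0.15, against -0.23 for endothelial cells and -0.12 for leukocytes. Among 9 tested endothelial genes 1 rose (Erg) and 0 fell, while Egfl7, Cdh5 and Cldn5 were lower at an unadjusted limma p under 0.05. Limma called 0 of 10 leukocyte genes (2 at an unadjusted p under 0.05, Lyz2 and Cd14). Among 7 smooth muscle and pericyte genes 1 rose (Mcam) and 1 fell (Notch3), while Cspg4 was higher at an unadjusted limma p under 0.05. The part of these markers in the results was not tested.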

How the data were processed

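The authors deposited 1 TPM value per gene symbol and library, per the file headers; TPM is scaled to 1000000 in each library and keeps no depth. The submitters' aligner, quantifier, annotation and build: not given in the sources used here. The 4 libraries were grouped by their labels. Genes with a mean of at least 1 TPM were tested on log2(TPM + 1) with limma 3.58.1 in R 4.3.3 (eBayes with an intensity trend, treatment as the only term). The symbol rule uses no values, but the family and the lists were chosen with earlier results of these data known. All called members, those with a mean of at least 10 TPM and those with separated libraries and a 1.5-fold change were described in full. An exact permutation test cannot reach a low p with 2 libraries per group and was not used. Also tried were a pseudocount of 0.1 or 5, all genes above 0, a mean of at least 5 TPM, quantile normalization, median scaling, no trend, robust eBayes, a replicate block, protein-coding genes by RefSeq, and each library left out in turn; the lone library of a group was then assumed to vary like the other group. Leaving libraries out of the class shares was added after seeing the data. On simulated data for this comparison (15815 genes), the fit called 61% of genes changed by 1 log2 unit, 98% of those changed by 2 and 0.0256% of unchanged genes. The simulated noise was normal, with the average spread of genes of similar level, and the changed genes lay above a minimum level. These rates need not hold for real genes, each of which has its own spread. All 73 members matched GENCODE M21 by symbol, which gave positions, exon overlaps and untranslated regions.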

Additional observations from a re-analysis of the deposited data

How the results depend on the processing

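Members higher and lower were 0 and 0 in a fit of all genes above 0 (limma, 11 members at an unadjusted p under 0.05), 2 and 2 with a mean of at least 5 TPM, 1 and 1 after quantile normalization, 2 and 1 after median scaling, 0 and 1 without an intensity trend, 1 and 1 with the replicate block, where Cacnb1 did not pass (limma adjusted p = 0.100), and 2 and 2 for protein-coding genes alone. Without 1 library they were 0 to 0 in both directions (limma, 5 to 11 members at an unadjusted p under 0.05). The 936 calls among all tested genes became 0 with every gene above 0 (4348 at an unadjusted p under 0.05), 602 without a trend, 1877 with protein-coding genes and 0 to 203 without 1 library. The 10 calls of the pathway lists became 0, 5 and 19 in those first 3 settings, 4 with the replicate block and 0 to 0 without 1 library. The block rests on a shared number only: deviations of same-numbered libraries from their group means correlated at -0.05 over 15815 genes. Members with separated libraries numbered 5 with a mean of at least 5 TPM and 3 at 2-fold, against 9. Without 1 library, the Piezo2 share of Piezo TPM differed by 16.7 to 27.3 percentage points between treatments, the Cacna1a share of pore subunits by -16.1 to -14.9 and the Cacnb1 share of beta subunits by -5.79 to -3.51. Of 30 members followed, 23 never changed sign in the settings that gave a value; Trpm6, Cacna1b, Cacnb4 and Ryr3 had none at a mean of at least 5 TPM. The other 7 did not pass in any setting: Trpm7 was 0.022 after quantile normalization, 0.045 after median scaling and -0.28 to 0.063 without 1 library; Orai2 was 0.000688, 0.011 and -0.32 to 0.032, and Cacng7 was 0.012 after median scaling. Without 1 library Orai1 ranged from -0.080 to 0.31, Stim2 from -0.11 to 0.24 (also -0.046 without TGFbeta 2), Itpr2 from -0.37 to 0.033 and Atp2b4 from -0.019 to 0.55. The cause of these shifts was not tested. Depth is unknown, so counting error could not be set beside any value.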
